A study of Mus musculus with 16 samples.

Results

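Clic6, Kcne2, Kcnj13, Aqp1, Slc4a5, Steap1 and Folr1 encode channels, transporters and a vitamin receptor known from the epithelium of the choroid plexus, and their RNA was followed array by array across 4 genotypes in the mouse hippocampus. All probe sets that the platform annotation pairs with 1 of these 7 symbols alone were taken, which gave 9 probe sets among the 45101 on the array, or 7 genes among 18193 named ones. Clic6 and Steap1 have 2 probe sets each, and the other genes have 1. The series holds 16 Affymetrix arrays, 4 per genotype, made from total RNA of male mice 2 months old on the strain labelled C56/BL6. The N-dCKO group carries the genotype label APP-/-; APLP2-/-, and the series title calls it a neuronal conditional loss of both genes. The APLP2KO group is labelled APLP2-/-, the APPKO group APP-/- and the WT group wild type. The labels and title name neither the promoter or Cre line behind the neuronal deletion nor the animal behind each array. All p-values therefore speak of the spread among the arrays at hand, and that spread may be technical.

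The choroid plexus is a sheet of secretory epithelium in the brain ventricles that makes cerebrospinal fluid. The plexus of the lateral ventricle is attached along the fimbria of the hippocampus. Its cells move sodium, chloride, bicarbonate and potassium across their basal and apical membranes, and water follows through aquaporin pores. The same cells carry folate, transthyretin and other molecules into the fluid. App and Aplp2 encode the amyloid precursor protein and its close relative amyloid precursor-like protein 2, both membrane proteins of neurons and many other cells.

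RefSeq promoter windows of the GRCm38.p6 assembly, from 250 bases before to 50 bases after the transcript start, were matched to 5 of the 7 genes. Kcne2 has 2 annotated starts, so there were 6 windows, while Clic6 and Folr1 had no entry. Each window was searched on both strands for the core of the site bound by OTX homeodomain proteins (TAATCC, reverse GGATTA), for TATAAA (reverse TTTATA) and for CCAAT (reverse ATTGG), letters that do not overlap one another. The 250 bases before the start are shown for Kcnj13 and Slc4a5, whose windows held a match, and for the more upstream start of Kcne2, the matched gene with the largest fold change, with matches in capitals and the rest in lower case, 5′ to 3′ on the strand of the gene.
Kcnj13, chr1:87394730-87394979, minus strand: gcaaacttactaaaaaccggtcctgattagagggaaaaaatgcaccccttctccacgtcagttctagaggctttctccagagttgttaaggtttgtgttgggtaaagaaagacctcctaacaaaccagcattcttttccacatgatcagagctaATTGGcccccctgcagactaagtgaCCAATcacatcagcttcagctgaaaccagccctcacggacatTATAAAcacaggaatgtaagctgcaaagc
Slc4a5, chr6:83237125-83237374, plus strand: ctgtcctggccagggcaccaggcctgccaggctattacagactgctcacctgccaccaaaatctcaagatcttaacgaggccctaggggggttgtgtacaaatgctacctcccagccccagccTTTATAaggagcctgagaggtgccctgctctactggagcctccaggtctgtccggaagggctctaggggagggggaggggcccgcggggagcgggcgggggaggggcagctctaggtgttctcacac
Kcne2, chr16:92292139-92292388, plus strand: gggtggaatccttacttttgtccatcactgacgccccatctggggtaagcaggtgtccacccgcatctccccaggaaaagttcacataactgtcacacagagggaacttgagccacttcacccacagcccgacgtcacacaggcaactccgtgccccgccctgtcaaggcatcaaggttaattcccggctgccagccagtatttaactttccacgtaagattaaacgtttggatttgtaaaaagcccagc
Kcnj13 had TATAAA 29 bases before its start, CCAAT at 71 bases and the reverse ATTGG at 96 bases. Slc4a5 had the reverse TTTATA 127 bases before its start. TATAAA in either direction was found in 13.6% and CCAAT in 37.4% of all 32851 windows of the same length. TAATCC in either direction was found in 0 of the 6 windows and in 7.06% of all windows. The GC content was 46.0% at Kcnj13, 53.0% and 48.7% at the 2 Kcne2 starts, 62.7% at Slc4a5 and at Aqp1, and 72.3% at Steap1, against a median of 52.7% over all windows. The 5 matched genes thus had promoter windows of unlike base composition, and none of the 3 motifs was in all of them.

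The values are MAS5 signals, a linear brightness per probe set that the authors had scaled so that the trimmed mean of every array was 500. The App probe set gave 1959 to 2381 in N-dCKO and 2344 to 2724 in APPKO, against 17715 to 21078 in APLP2KO and 17314 to 19940 in WT. Aplp2 gave 860 to 1132 in N-dCKO and 847 to 1501 in APLP2KO, against 5406 to 6026 in APPKO and 5725 to 6186 in WT. Every array thus matched its genotype label, N-dCKO array 3 included (2381 for App and 1132 for Aplp2). That array stands apart from the other N-dCKO arrays in choroid plexus RNA. Its signal for Ttr, the transthyretin gene and a marker of this epithelium, was 34285, against 109.8, 283 and 715 in N-dCKO arrays 1, 2 and 4 and 26344 to 33519 in WT. The highest signal of any probe set was 35142 on N-dCKO array 3 and 29153 to 34766 on the WT arrays, so Ttr lay near the top of the scale there and no order is read from it. The ratio of 3′ to 5′ Gapdh control signal is a measure of RNA quality. It was 0.797 to 0.834 in N-dCKO and 0.752 to 0.786 in WT, groups that did not overlap. The same ratio for the actin control was 1.571 to 1.738 in N-dCKO and 1.602 to 1.708 in WT, groups that overlapped. Summed signals of 8 hippocampal neuron markers were 16193 to 18240 in N-dCKO and 16238 to 16399 in WT.

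The 3 ion channel genes were far lower in N-dCKO hippocampus than in WT. Clic6, Kcne2 and Kcnj13 averaged 12.7%, 12.9% and 17.3% of their WT signal, and in N-dCKO arrays 1, 2 and 4 alone 3.15%, 2.02% and 8.79%. All 6 genes of the set that passed the filter on dim probe sets were called lower (adjusted p below 0.05 with limma), where 0.694% of all 11664 genes tested were called lower. By the probe set tested, all 6 were also lower in every N-dCKO array than in every WT array, where 4.46% of all genes were. Of the 9 probe sets 6 were, and those of Slc4a5 and the dimmer ones of Clic6 and Steap1 overlapped with WT. In a bulk sample fewer cells of a type and less RNA per cell cannot be told apart.

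Clic6 encodes a member of the chloride intracellular channel family. The signal of the brighter probe set was 18.0, 34.1, 399 and 38.8 in N-dCKO arrays 1 to 4 and 486, 639, 629 and 382 in the APLP2KO arrays. It was 414, 688, 775 and 991 in the APPKO arrays and 1094, 1490.2, 573 and 689 in the WT arrays. Arrays 1, 2 and 4 of N-dCKO lay far below all others, array 3 lay within the range of APLP2KO, and no N-dCKO array reached the lowest WT array. The means were 123 ± 185 in N-dCKO, 534 ± 123 in APLP2KO, 717 ± 239 in APPKO and 961 ± 417 in WT (SD, n = 4 each). On the log2(signal + 9) scale the difference between N-dCKO and WT was -3.71 ± 0.55 (SE, adjusted p = 0.00196 with limma). The dimmer Clic6 probe set gave 48.8, 40.0, 201 and 67.9 in N-dCKO and 425, 513, 201 and 309.6 in WT. There N-dCKO array 3 and WT array 3 were nearly equal, and the log2 difference, in the fit of every probe set alone, was -2.09 ± 0.35 (adjusted p = 0.00872 with limma). That call was lost under 5 of 17 alternatives (adjusted p = 0.0515 to 0.211 with limma), 1 of them the fit without WT array 2.

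Kcne2 encodes a small membrane subunit that joins voltage-gated potassium channels, in the mouse choroid plexus those formed by Kcnq1 and Kcna3. Its signal was 4.98, 4.87, 155 and 10.8 in N-dCKO arrays 1 to 4 and 165, 219, 202 and 239.7 in the APLP2KO arrays. It was 85.9, 268, 234 and 405 in the APPKO arrays and 284, 638, 199 and 242 in the WT arrays. N-dCKO arrays 1, 2 and 4 were at or below 10.8, array 3 was above APPKO array 1 and below the other arrays, and WT array 2 was the highest of all 16. The group means were 43.8 ± 73.9 in N-dCKO, 206 ± 31.5 in APLP2KO, 248 ± 131 in APPKO and 341 ± 201 in WT (SD, n = 4 each). The log2 difference between N-dCKO and WT was -3.49 ± 0.59 (adjusted p = 0.00368 with limma). For so dim a gene it depends on the pseudocount of 9, which draws low values together.

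Kcnj13 encodes Kir7.1, an inwardly rectifying potassium channel of the apical membrane of this epithelium. Its signal was 24.6, 80.9, 282 and 68.6 in N-dCKO arrays 1 to 4 and 389.7, 459, 535 and 403 in the APLP2KO arrays. It was 252, 454, 484 and 639 in the APPKO arrays and 659.7, 999, 421 and 561 in the WT arrays. The N-dCKO arrays other than array 3 were again the lowest, and array 3 exceeded APPKO array 1 alone among the other genotypes. The means were 114 ± 115 in N-dCKO, 447 ± 66.2 in APLP2KO, 457 ± 159 in APPKO and 660.2 ± 246 in WT (SD, n = 4 each). The means of APLP2KO and APPKO differed by less than the SD of either group. The step from APPKO to WT exceeded the SD of APPKO but not that of WT. The step from APLP2KO down to N-dCKO exceeded the SD of both. The log2 difference between N-dCKO and WT was -2.81 ± 0.42 (adjusted p = 0.00196 with limma).

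**Figure D1:**
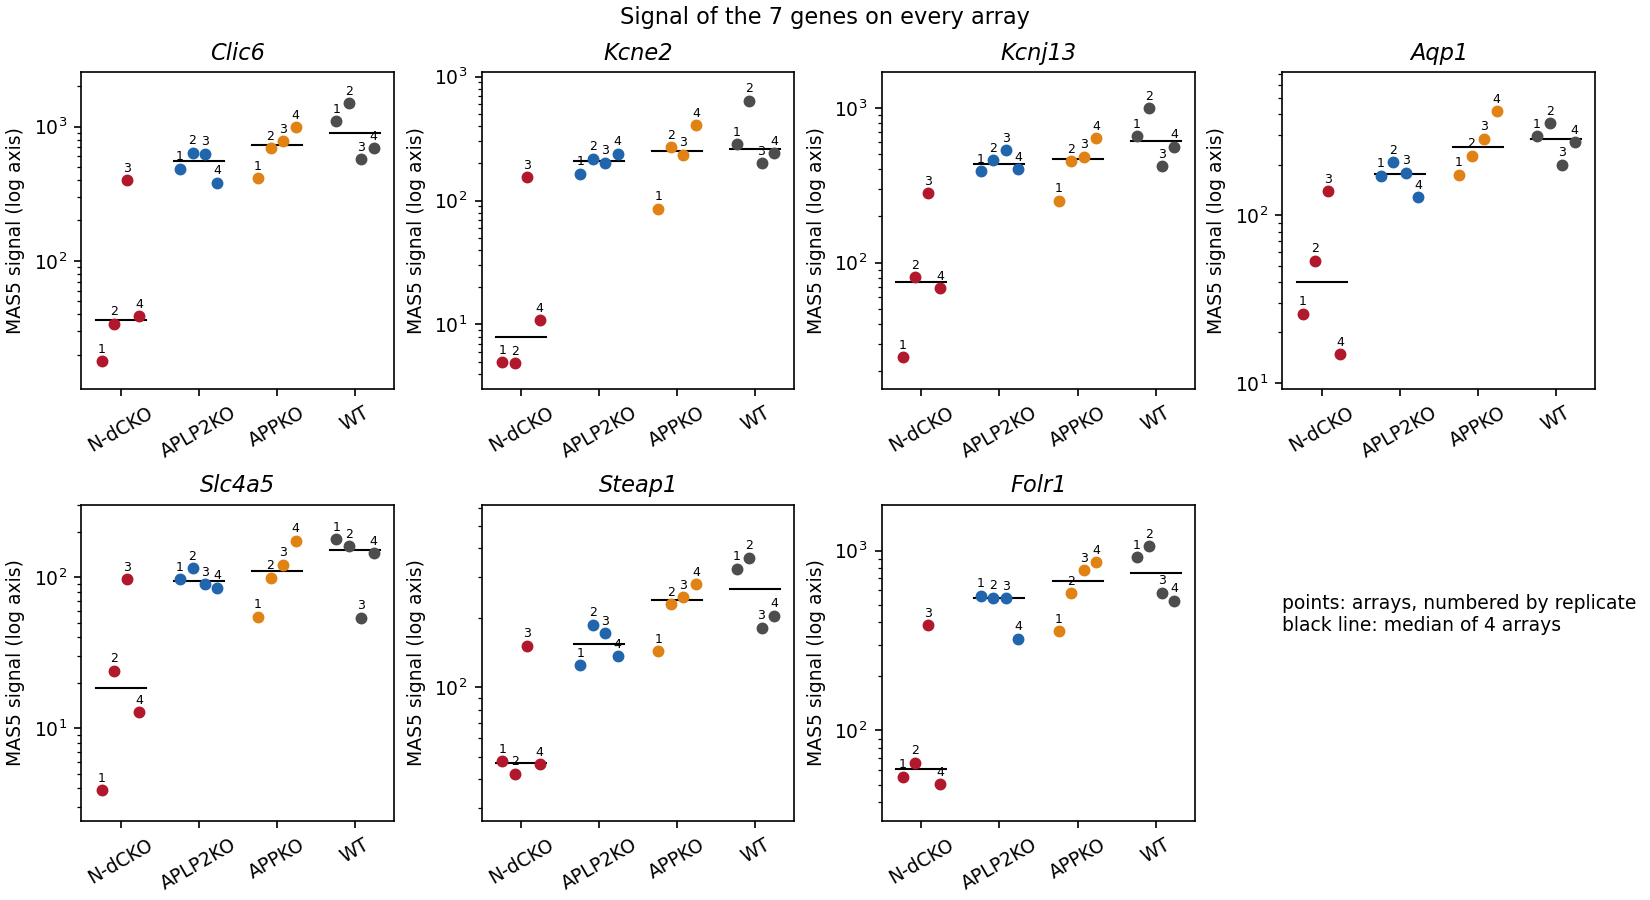
MAS5 signal (log axis) of the 7 genes on each of the 16 arrays, 1 panel per gene with its brightest probe set; points are arrays, labelled by replicate number, and black lines are medians of 4 arrays. N-dCKO arrays 1, 2 and 4 lie below every other array in all 7 panels, and N-dCKO array 3 lies among or near the lower arrays of the other genotypes.

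The water channel and the bicarbonate transporter were likewise lowest in N-dCKO arrays 1, 2 and 4. Aqp1 encodes aquaporin 1, the main water pore of the apical membrane. Its signal was 25.9, 53.6, 139 and 14.8 in N-dCKO arrays 1 to 4 and 172, 208, 179.6 and 128 in the APLP2KO arrays. It was 175, 227, 286 and 421 in the APPKO arrays and 298, 357, 200.3 and 274 in the WT arrays. N-dCKO array 3 exceeded APLP2KO array 4 alone among the other genotypes, and the 2 highest arrays were APPKO array 4 and WT array 2. The means were 58.4 ± 56.4 in N-dCKO, 172 ± 33.0 in APLP2KO, 277 ± 106 in APPKO and 282 ± 64.7 in WT (SD, n = 4 each). The mean of APPKO was 98.2% of that of WT, the closest approach of any knockout in the set. The log2 difference between N-dCKO and WT was -2.44 ± 0.39 (adjusted p = 0.0025 with limma).

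Slc4a5 encodes NBCe2, an electrogenic sodium bicarbonate cotransporter of the apical membrane. Its signal was 3.90, 24.1, 97.2 and 12.8 in N-dCKO arrays 1 to 4 and 97.4, 115, 90.6 and 85.5 in the APLP2KO arrays. It was 55.0, 99.6, 121 and 175 in the APPKO arrays and 179, 161, 54.1 and 145 in the WT arrays. N-dCKO array 3 exceeded 4 of the 12 arrays of the other genotypes, more than for any other gene of the set, and WT array 3 was as low as APPKO array 1. Its only probe set was too dim for the filter (a mean log2 signal of at least 6.60, or a signal of 88), so it was tested only in the fit of every probe set. The log2 difference between N-dCKO and WT was -2.07 ± 0.48, which did not pass (adjusted p = 0.0935 with limma). Without N-dCKO array 3 it was -2.66 (adjusted p = 0.00226), without WT array 3 it was -2.43 (adjusted p = 0.0493), and with array weights it was -2.20 (adjusted p = 0.0367).

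The remaining members are Steap1 and Folr1. Steap1 belongs to the STEAP family, whose other members reduce iron and copper. The signal of its brighter probe set was 47.8, 42.2, 151 and 46.3 in N-dCKO arrays 1 to 4 and 125, 187, 171 and 136 in the APLP2KO arrays. It was 143, 229.5, 246 and 280.2 in the APPKO arrays and 327, 365, 182 and 205 in the WT arrays. The smallest change of the set was here, with N-dCKO arrays at 15.7% to 56.2% of the WT mean. The log2 difference between N-dCKO and WT was -1.91 ± 0.31 (adjusted p = 0.00274 with limma). The dimmer Steap1 probe set, which did not pass the filter, gave 2.00, 1.09, 55.0 and 10.5 in N-dCKO and 175, 158, 39.9 and 89.1 in WT. Its log2 difference was -2.51 ± 0.47 (adjusted p = 0.0225 in the fit of every probe set), so the 2 probe sets differed in size and not in direction. The call of the dimmer one was lost under 10 of 17 alternatives (adjusted p = 0.0524 to 0.203 with limma), 6 of them fits without 1 array (N-dCKO array 1, 2 or 4, or WT array 1, 2 or 4).

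Folr1 encodes folate receptor alpha, which carries folate from blood to cerebrospinal fluid through this epithelium. Its signal was 55.3, 66.2, 385 and 50.3 in N-dCKO arrays 1 to 4 and 562, 546, 544 and 323 in the APLP2KO arrays. It was 356, 579.5, 776 and 865 in the APPKO arrays and 920.3, 1060.2, 583 and 526 in the WT arrays. N-dCKO arrays 1, 2 and 4 lay close together, array 3 exceeded APLP2KO array 4 and APPKO array 1, and the WT arrays formed a high pair and a low pair. The means were 139 ± 164 in N-dCKO, 494 ± 114 in APLP2KO, 644 ± 226 in APPKO and 773 ± 259 in WT (SD, n = 4 each). The log2 difference between N-dCKO and WT was -2.86 ± 0.43 (adjusted p = 0.00196 with limma).

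The N-dCKO group was not uniform. For all 9 probe sets N-dCKO arrays 1, 2 and 4 lay below every array of the other 3 genotypes. N-dCKO array 3 lay below all 12 of those arrays for 0 of the 9 probe sets. As a share of the WT mean, array 3 ran from 41.5% for Clic6 to 72.2% for Slc4a5, whereas the mean of the other 3 arrays ran from 2.02% for Kcne2 to 16.9% for Steap1. Leaving array 3 out made the log2 difference from WT larger for each of the 6 genes, from -4.57 for Clic6 and -4.33 for Kcne2 to -2.30 for Steap1. Array 3 also had the highest median signal of all arrays (102) and the highest Gapdh ratio (0.834). Whether these have a part in its choroid plexus signal was not tested. With the Gapdh ratio as a covariate, 4 of the 6 genes remained called against WT, and Kcne2 (-3.76, adjusted p = 0.065) and Steap1 (-1.95, adjusted p = 0.0686) were not. Without limma's moderation of the variances 0 of the 6 were called against WT (adjusted p = 0.0506 to 0.0767).

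The same N-dCKO arrays were next set against the single knockouts, so these comparisons share their N-dCKO values with the one above. Against APPKO all 6 genes were lower (adjusted p = 0.00769 to 0.0229 with limma), where 0.291% of all genes were called lower. The log2 differences were -3.33 ± 0.55 for Clic6, -3.01 ± 0.59 for Kcne2, -2.29 ± 0.42 for Kcnj13, -2.37 ± 0.39 for Aqp1, -1.68 ± 0.31 for Steap1 and -2.59 ± 0.43 for Folr1. Only Clic6 and Aqp1 of the 6 were lower in every N-dCKO array than in every APPKO array, where 2.03% of all genes were. The calls for Clic6, Aqp1 and Folr1 held whichever array was left out, and those of the other 3 did not. Kcnj13, Steap1 and Kcne2 lost theirs without N-dCKO array 4, APPKO array 3 or APPKO array 4 (adjusted p = 0.0593 to 0.102). Kcne2 and Steap1 also lost theirs without N-dCKO array 1 or 2, and Kcne2 without APPKO array 2. When the fit held only N-dCKO and APPKO, 0 of the 6 passed (adjusted p = 0.0786 to 0.141).

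Against APLP2KO 0 of the 6 genes passed the adjusted threshold (adjusted p = 0.0591 to 0.218 with limma), where 0.0257% of all genes did. All 6 were lower at an unadjusted p below 0.05, which 4.31% of all genes were. The log2 differences were -2.95 ± 0.55 for Clic6, -2.92 ± 0.59 for Kcne2, -2.32 ± 0.42 for Kcnj13, -1.76 ± 0.39 for Aqp1, -1.18 ± 0.31 for Steap1 and -2.25 ± 0.43 for Folr1. Kcne2 and Kcnj13 were lower in every N-dCKO array than in every APLP2KO array, where 2.98% of all genes were. The calls changed with the weight given to N-dCKO array 3. Without it all 6 genes were called lower, with log2 differences from -3.80 for Clic6 (adjusted p = 6.51e-07) to -1.57 for Steap1 (adjusted p = 0.00199), and 35 of all genes were called in place of 3. With all arrays kept and weights for array quality in limma, all 6 were called as well (adjusted p = 0.00594 to 0.0490). With the replicate number as a block in limma, 4 of the 6 were called (Clic6, Kcne2, Kcnj13 and Folr1, adjusted p = 0.0254 to 0.0474). Slc4a5, in the fit of every probe set, was -1.74 ± 0.48 against APLP2KO (adjusted p = 0.406) and -1.85 ± 0.48 against APPKO (adjusted p = 0.277). Without N-dCKO array 3 it was called lower in both, at -2.33 (adjusted p = 0.018 with limma) against APLP2KO and -2.43 (adjusted p = 0.0078) against APPKO.

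**Figure D2:**
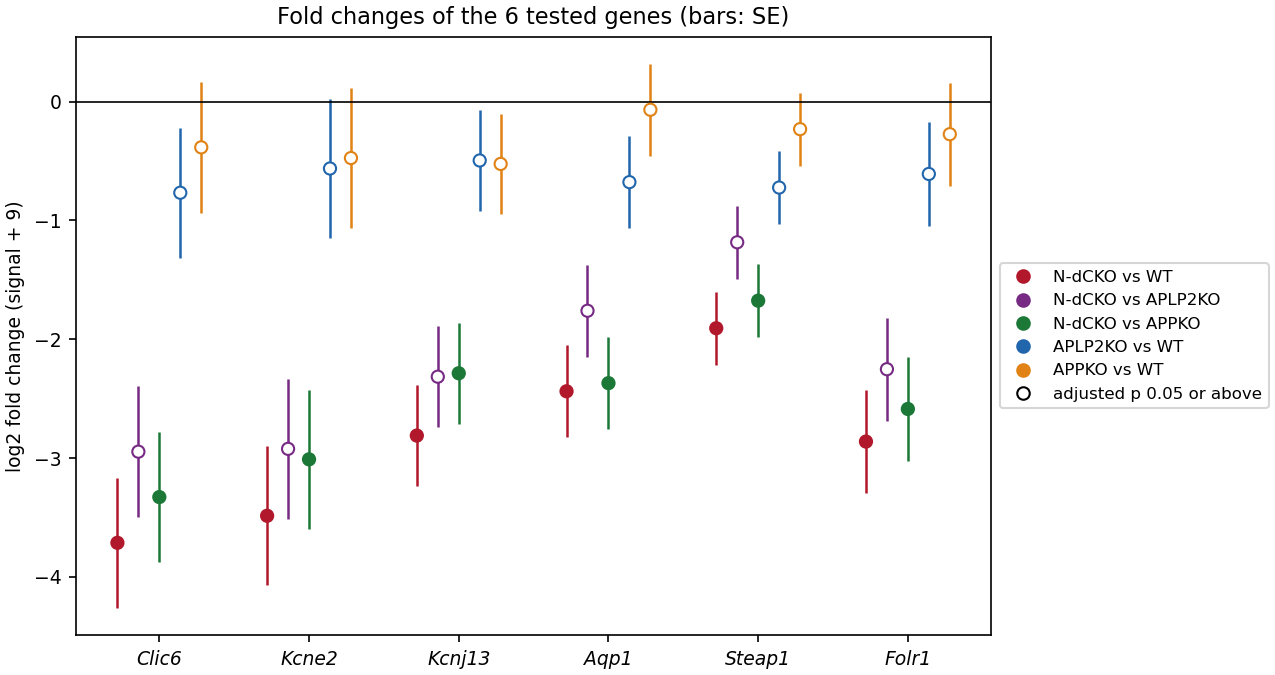
Log2 fold change of the 6 tested genes on the log2(signal + 9) scale in 5 comparisons, with SE bars; filled points have an adjusted p below 0.05 with limma and open points do not. The 3 comparisons of N-dCKO lie between -3.71 and -1.18, and those of the single knockouts with WT lie between -0.77 and -0.07.

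Neither single knockout had a member called against WT. In APLP2KO the 6 log2 differences ran from -0.77 for Clic6 to -0.50 for Kcnj13, and 0 of 6 passed (adjusted p = 0.600 to 0.876 with limma), where 0.129% of all genes did. Steap1, at -0.72 ± 0.31, was the 1 gene of the 6 that was lower with limma before adjustment (unadjusted threshold of 0.05), as 4.39% of all genes were. In APPKO the 6 differences ran from -0.52 ± 0.42 for Kcnj13 to -0.07 ± 0.39 for Aqp1, and 0 of 6 passed (adjusted p = 0.9997 for each with limma), where 0.00857% of all genes did. Before adjustment 0 of the 6 were lower at the 0.05 threshold, as 3.16% of all genes were. All 12 of these differences were below 0, as were those of 53.3% of all genes in APLP2KO and 51.7% in APPKO. The median over all genes was -0.01 in APLP2KO and -0.0038 in APPKO. The 12 signs are not separate observations, since both comparisons share the WT arrays and the members vary together. The dimmer Steap1 probe set was at 0.05 in APPKO. The sign for Aqp1 in APPKO turned to 0.12 without APPKO array 1 and to 0.05 without WT array 2.

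The interaction sets the difference between N-dCKO and APLP2KO against that between APPKO and WT. In the title and labels given above only N-dCKO is described as conditional. The loss of both genes and the manner of their deletion therefore cannot be told apart in any comparison of N-dCKO. The interaction was -2.56 ± 0.78 for Clic6, -2.45 ± 0.83 for Kcne2, -1.79 ± 0.60 for Kcnj13, -1.69 ± 0.55 for Aqp1, -0.95 ± 0.43 for Steap1 and -1.98 ± 0.61 for Folr1 on the log2 scale. With limma 0 of the 6 passed (adjusted p = 0.9997 for each), and 0.0% of all genes did. All 6 had an unadjusted p below 0.05 in the lower direction (0.00366 to 0.0400 with limma), which 2.11% of all genes had. Without N-dCKO array 3, 5 of the 6 were called (adjusted p = 0.00071 for Clic6 to 0.0393 for Kcnj13 and Aqp1), and Steap1 was not (-1.34, adjusted p = 0.358).

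Other genes of the choroid plexus epithelium were lower in the same arrays. Of 20 listed markers 18 were on the array and 13 passed the filter. In N-dCKO against WT 11 of the 13 were called lower (0.694% of all genes were) and 0 higher. The median log2 difference of the 13 was -1.85, against -2.84 for the 6 members and -0.0041 for all genes. The 11 were Ttr, Otx2, Ecrg4, Kl, Cldn2, F5, Calml4, Col8a1, Krt8, Krt18 and Sostdc1. Against APPKO 8 of the 13 were called lower (0.291% of all genes). Against APLP2KO 1 was (Cldn2, -1.80, adjusted p = 0.0314 with limma), where 0.0257% of all genes were. Without Ttr the summed marker signal was 1325 to 1589 in N-dCKO arrays 1, 2 and 4 and 4416 in N-dCKO array 3, against 4502 to 6039.6 in APLP2KO, 3565 to 8693 in APPKO and 5214 to 10390.4 in WT. In N-dCKO array 3 the signals for the 7 genes and the summed signal without Ttr lay below the WT mean.

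The members were also set against the other choroid plexus genes within each array. The mean log2 signal of the 6 members minus that of 12 other choroid plexus genes, Ttr left out, was -1.18, -0.99, -0.08 and -1.03 in N-dCKO arrays 1 to 4. It was -0.08 to 0.06 in the APLP2KO arrays, 0.06 to 0.28 in the APPKO arrays and 0.13 to 0.43 in the WT arrays. The group means were -0.82 ± 0.50 in N-dCKO, -0.01 ± 0.06 in APLP2KO, 0.20 ± 0.10 in APPKO and 0.26 ± 0.13 in WT (SD, n = 4 each). The mean of the members thus stood lower relative to the mean of these 12 markers in N-dCKO arrays 1, 2 and 4 than in any other array. Array 3 stood with the lowest APLP2KO array. With 4 times the pseudocount the N-dCKO mean was -0.61 and the WT mean 0.23, and with none -0.92 and 0.27. Single genes of the 2 sets overlapped. In N-dCKO against WT the 13 tested markers, Ttr included, ran from -4.92 to -0.50 and the 6 members from -3.71 to -1.91. Ecrg4 (-3.39) and Otx2 (-3.24) were lower than Folr1, Kcnj13, Aqp1 and Steap1, so a large drop was not particular to the members. No test of the difference within arrays was made, since the members and markers were chosen with results in view.

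**Figure D3:**
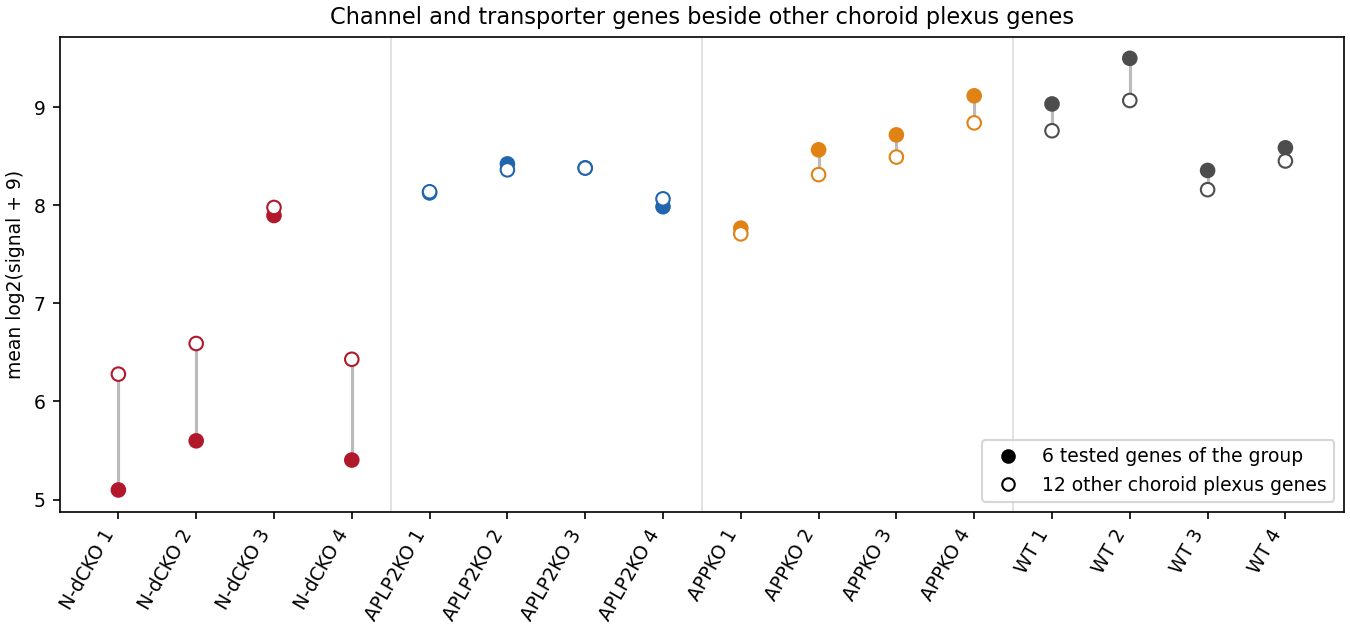
Mean log2(signal + 9) on each of the 16 arrays for the 6 tested genes (filled) and for 12 other choroid plexus genes (open), with a grey line joining the values of an array. Filled minus open is -0.99 to -1.18 in N-dCKO arrays 1, 2 and 4, and the filled points lie above the open ones in all APPKO and WT arrays.

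Transporters that work beside the members changed in part. Of 26 listed partners 24 were on the array and 19 were tested. In N-dCKO against WT 3 of these were called lower (0.694% of all genes were) and 0 higher, with a median log2 difference of -0.14. Car14, a membrane carbonic anhydrase, differed by -0.97 ± 0.17 (adjusted p = 0.00468 with limma). Car12, another one, differed by -0.70 ± 0.12 (adjusted p = 0.00368). Slc12a2, the sodium-potassium-chloride cotransporter NKCC1 of the apical membrane, which other brain cells express too, differed by -0.49 ± 0.10 (adjusted p = 0.0194). Car12 was the 1 partner called against APPKO (-0.58 ± 0.12, adjusted p = 0.0303), where 0.291% of all genes were called lower. Against APLP2KO 0 of the 19 were called with limma, 7 of them at an unadjusted p below 0.05 (8.44% of all genes). The partner subunits Kcnq1 and Kcna3 did not pass the filter and were not tested.

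Relatives of the members from the same protein families were not called. Of 26 relatives (other Clic, Kcne, Kcnj, Aqp, Steap, Slc4 and Folr genes) 16 were tested and 0 were called in N-dCKO against WT with limma, 7 at an unadjusted p below 0.05 (12% of all genes, or 1397), with a median log2 difference of 0.10 and a range from -0.43 to 0.48. The relatives with the smallest p were Clic4, at -0.43 ± 0.11 (adjusted p = 0.0698 with limma), and Kcne1l, at 0.48 ± 0.16 (adjusted p = 0.179). Of 19 genes of folate transport and metabolism 15 were tested and 0 were called, 2 at an unadjusted p below 0.05, with a median of -0.04. Aldh1l1, a folate enzyme of astrocytes, was at 0.22 ± 0.08 (adjusted p = 0.220) and Ggh, which trims folate polyglutamates, at -0.20 ± 0.09 (adjusted p = 0.364).

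Markers of other cells that the dissection could hold were counted in the same comparison of N-dCKO with WT. For ependyma, the ciliated lining next to the choroid plexus, 0 of 8 were called with limma, 4 had an unadjusted p below 0.05, and all 8 were below 0 with a median log2 difference of -0.50. Their summed signal was 1158 to 1685 in N-dCKO and 1820.0 to 2305 in WT. Foxj1, a regulator of cilia genes, was at -0.84 ± 0.21 (adjusted p = 0.0643 with limma) and Pifo at -0.74 ± 0.20 (adjusted p = 0.0841). Of the microglia list 4 of 10 were called lower (C1qa, C1qb, C1qc and Tyrobp, -0.46 to -0.39), 8 had an unadjusted p below 0.05, and all 10 were below 0 with a median of -0.36. Their summed signal was 11817 to 12788 in N-dCKO and 14973 to 15539 in WT. Of the oligodendrocyte list 1 of 9 was called lower (Mal, -0.90), 8 had an unadjusted p below 0.05, and all 9 were below 0 with a median of -0.52. Their summed signal was 58955 to 74549.6 in N-dCKO, with array 3 the highest, and 78838.5 to 97289 in WT. For leptomeninges (median -0.18, 9 tested), endothelium (-0.04, 9 tested), mural cells (-0.03, 7 tested), astrocytes (0.14, 10 tested), hippocampal neurons (0.12, 8 tested), thalamus and habenula (-0.10, 4 tested) and blood (0.01, 2 tested) 0 were called with limma. At an unadjusted p below 0.05 there were 2 leptomeningeal, 0 endothelial, 1 mural, 4 astrocyte, 2 neuronal, 0 thalamic and habenular and 0 blood markers. Some of these shifts were also in single knockouts. In APPKO against WT the oligodendrocyte median was -0.52, with 7 of 9 at an unadjusted p below 0.05 (5.18% of all genes). It was -0.05 in APLP2KO against WT and -0.07 in N-dCKO against APPKO. The microglia median was -0.21 in APLP2KO and -0.14 in APPKO against WT, with all 10 below 0 in each. The part that any of the cell types has in the signals of the 7 genes was not tested.

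**Figure D4:**
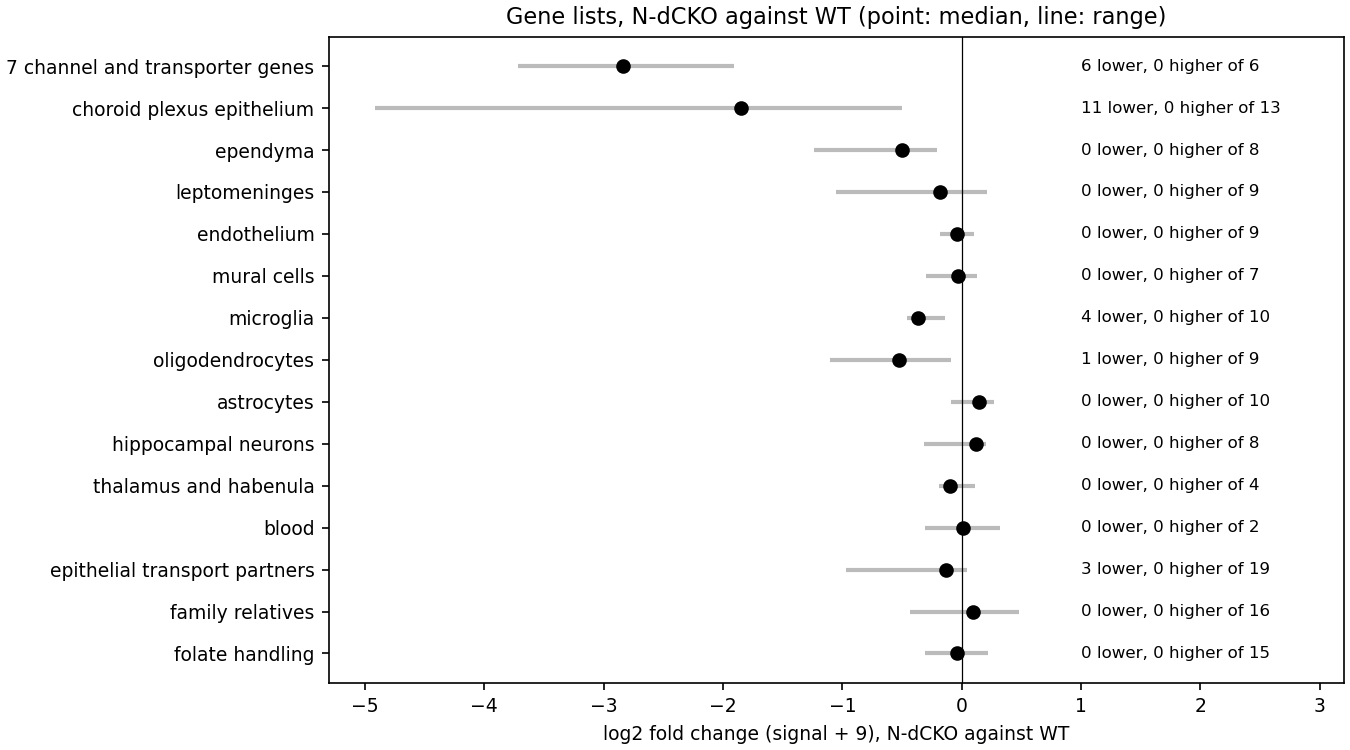
Log2 fold change of N-dCKO against WT on the log2(signal + 9) scale for the channel and transporter genes and the other gene lists; points are medians over the tested genes, grey lines their range, and the text at right counts genes called with limma at an adjusted p below 0.05. The channel and transporter genes (-2.84) and the choroid plexus list (-1.85) have the lowest medians, and the other medians lie between -0.52 and 0.14.

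Among all 11664 genes, those whose pattern over the 16 arrays was most like the mean of the members were sought by the root mean square difference of centred log2 signals. The members, which make up that mean and so score low by construction, had 0.169 (Folr1) to 0.495 (Steap1). The median of all genes was 1.31. The 10 closest other genes were Ecrg4 (0.263), Otx2 (0.370), Cldn2 (0.435), Defb11 (0.452), Kl (0.460), Prr32 (0.464), F5 (0.494), Calml4 (0.503), Col8a1 (0.558) and Sulf1 (0.610). Of the 10, 7 were on the choroid plexus list, which has 13 tested genes among the 11664. The ranking uses the N-dCKO arrays, and the list was chosen with earlier results of these data known. The count is therefore a description and not separate support. Otx2 encodes a homeodomain transcription factor of the choroid plexus, with signals of 0.425 to 132 in N-dCKO, 127 to 264 in APLP2KO, 142 to 361 in APPKO and 136 to 418 in WT. Cldn2 encodes a tight junction protein of leaky epithelia and Kl the hormone co-receptor Klotho. Defb11, a beta-defensin gene on no list used here, gave 7.53 to 100.4 in N-dCKO, 155 to 271 in APLP2KO, 132 to 421 in APPKO and 264 to 572 in WT.

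The members also varied together among arrays outside N-dCKO. Over the 12 arrays of APLP2KO, APPKO and WT, all 21 pairs of the 7 genes were positively correlated in log2 signal (Pearson r from 0.70 to 0.96, median 0.83, each adjusted permutation p at or below 0.0113 over the 21 pairs). The closest pair was Clic6 and Steap1 (r = 0.96, permutation p = 1e-05, the smallest that 100000 resamples can give, and Spearman rho = 0.965, permutation p = 1e-05). The loosest was Kcne2 and Aqp1 (r = 0.70, permutation p = 0.0113, and rho = 0.790, permutation p = 0.00352). Without the 2 arrays farthest from the median of the first gene of a pair, r was 0.475 (Kcne2 and Folr1) to 0.952 (Clic6 and Steap1), and 20 of 21 pairs still passed. Kcne2 and Folr1 no longer passed, with r still positive over the narrower range of the 10 arrays left. After the mean of each genotype was taken off, r was 0.71 to 0.96 and 21 of 21 pairs passed, or 20 of 21 by Spearman's rho. WT array 2 was the highest of the 12 arrays for 6 of the 9 probe sets, and APLP2KO array 4 was the lowest for 4. The mean log2 signal of 12 other choroid plexus genes was highest in WT array 2 (9.07) and lowest in APPKO array 1 (7.71). The mean of the 6 tested members was too (9.50 and 7.77), so these extremes were not particular to the members. How often pairs of other genes pass was not counted.

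**Figure D5:**
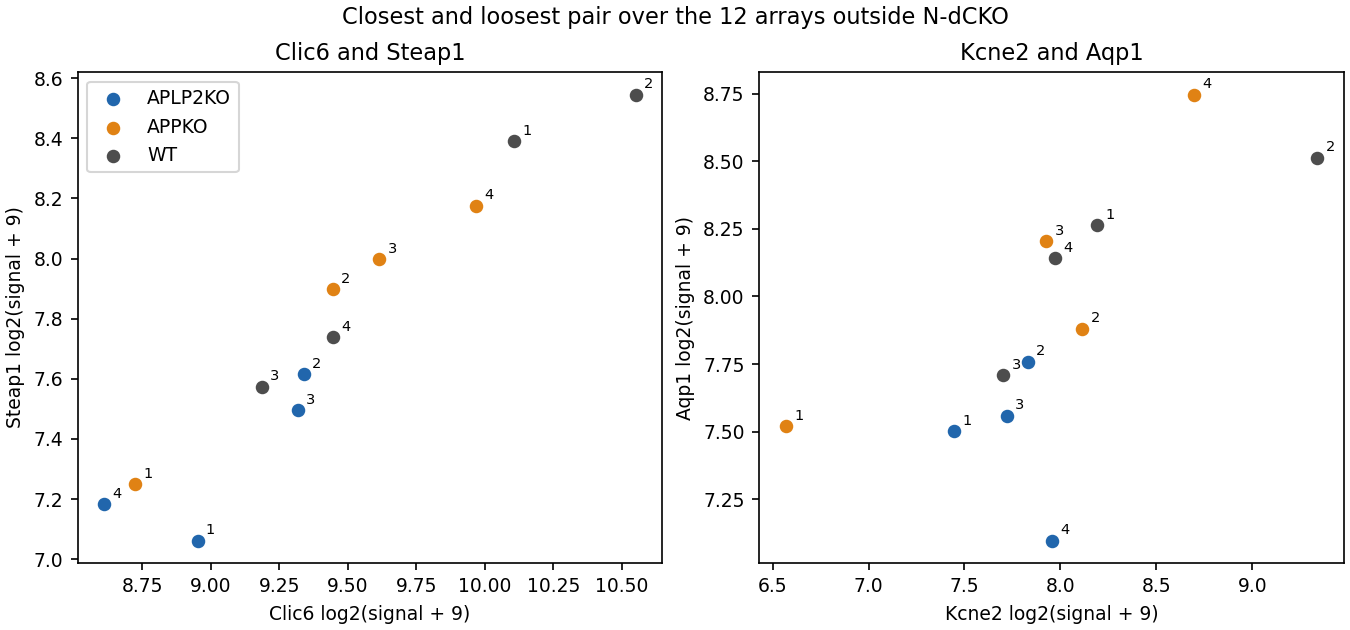
Log2(signal + 9) of Steap1 against Clic6 (left, r = 0.96) and of Aqp1 against Kcne2 (right, r = 0.70) on the 12 arrays of APLP2KO, APPKO and WT, with points labelled by replicate number. In both panels WT arrays 1 and 2 and APPKO array 4 are the 3 highest on each axis.

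The members lie on 5 chromosomes. Kcnj13 is on chromosome 1, Steap1 on 5, Aqp1 and Slc4a5 on 6, Folr1 on 7, and Clic6 and Kcne2 on 16, which also carries App. Clic6 and Kcne2 are within 10 Mb of App and have 5 protein-coding genes between them (Smim11, Fam243, Smim34, Kcne1 and Rcan1), while none of the members is within 10 Mb of Aplp2 on chromosome 9. Of the 59 other tested genes within 10 Mb of App, 0 were called in APPKO against WT with limma and 3 had an unadjusted p below 0.05 (5.18% of all genes), with a median log2 difference of 0.01. Clic6 and Kcne2 were at -0.38 ± 0.55 and -0.48 ± 0.59 in that comparison, against -0.52 to -0.07 for the 4 tested members on other chromosomes (Kcnj13, Steap1, Aqp1 and Folr1).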

How the data were processed

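RNA of 16 hippocampal samples, 4 per genotype, was measured on Affymetrix arrays. The deposited values are linear intensity signals. They come from MAS5 (version not given in the sources used here), according to the submitters' processing notes, as the authors' own step. Each array had a 2% trimmed mean of 500, and that scaling was kept. Detection calls were not used here. Probe sets were named through the platform annotation and a GRCm38.p6 gene table, and only those with 1 symbol were given a gene.

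Signals were used as log2(signal + 9), where 9 is set from the median signal of 91.7. Probe sets with a mean log2 signal of 6.60 or more, the median of all, were kept, and the brightest probe set of each gene was tested, which left 11664 genes. The fit used limma 3.58.1 in R 4.3.3 with 1 mean per group over 16 arrays, moderated variances with an intensity trend, and Benjamini-Hochberg adjustment over all genes tested, two-sided. Each probe set was also fitted alone without the filter. Errors are SE for log2 differences and SD for signals, and precision is limited by the number of arrays. The code was tested on simulated data.

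The 7 genes, the gene lists and the tests were chosen with earlier results of these data known. Of each other list, genes called in a comparison of N-dCKO were named (up to 4 by smallest p, or up to 2 where none was called), and the full choroid plexus calls were named after their values were seen. The 10 genes of the most similar pattern were named by rank. Correlations used 100000 permutations in scipy 1.17.1, and the figures matplotlib 3.10.9. Alternatives covered the normalization, pseudocount, filter, probe sets, variance model, array weights, replicate number, Gapdh ratio, groups in the fit and each array left out.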

Additional observations from a re-analysis of the deposited data

Results flagged for a closer look

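In 5 of the 36 combinations of probe set and genotype, 1 array lay far from the other 3, with a gap to its nearest neighbour, as a share of the whole range of the group, above Dixon's 95% critical value for 4 values. Chance gives about 1 in 20 for a single combination if the values are normally distributed. The shares were taken on the linear signals. They were not computed on the log2 scale of the fits, where the share of a high array is smaller. The 36 share arrays and their probe sets vary together, so the count cannot be set against that rate. In 4 of the 5 the array was N-dCKO array 3, the highest of its group. The share was 0.946 for Clic6 (399, against 18.0, 34.1 and 38.8), 0.960 for Kcne2 (155, against 4.98, 4.87 and 10.8), 0.949 for Steap1 (151, against 47.8, 42.2 and 46.3) and 0.953 for Folr1 (385, against 55.3, 66.2 and 50.3). The Clic6 and Steap1 values are those of the brighter probe sets. In the other case APLP2KO array 4 was the lowest for Folr1 (323, against 562, 546 and 544), with a share of 0.922.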

How the results depend on the processing

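Against WT the 6 genes were all called under each alternative and with each array left out (6 to 6), except without moderated variances (0) and with the Gapdh ratio as a covariate (4). No member passed the 75th percentile filter, so that alternative gave no value for them. Against APLP2KO, where 0 were called, 1 was called with 4 times the pseudocount (Kcnj13), 6 with array weights, 4 with the replicate block, and 0 to 6 with an array left out (6 without N-dCKO array 3). Against APPKO, where 6 were called, 3 were called without a variance trend, 0 without moderated variances, 0 with only the groups compared, 3 with the Gapdh ratio, and 3 to 6 with an array left out. For the interaction 0 to 5 were called with an array left out. The 6 genes kept their sign in each comparison of N-dCKO. The sign turned in APPKO against WT for Aqp1 (-0.07) with array weights (0.075) and with an array left out (-0.29 to 0.12), for the dimmer Steap1 probe set (0.05) with quantile normalization (-0.025), the Gapdh ratio (-0.049) and an array left out (-0.34 to 0.30), and for Slc4a5 (-0.22) with an array left out (-0.58 to 0.054). Over all genes, 110 were called between N-dCKO and WT, but 60 with the 75th percentile filter, 55 with each probe set alone, 73 without a variance trend, 33 without moderated variances, 170 with array weights, 198 with the replicate block, 23 with the Gapdh ratio and 45 to 115 with an array left out. Between N-dCKO and APLP2KO 3 were called, but 5 with 4 times the pseudocount, 1 with no filter, the 75th percentile filter, each probe set alone, no variance trend, no moderated variances or the Gapdh ratio, 30 with array weights, 17 with the replicate block and 1 to 35 with an array left out. Between N-dCKO and APPKO 41 were called, but 15 with the 75th percentile filter, 20 without a variance trend, 2 without moderated variances, 9 with only the groups compared, 20 with the Gapdh ratio and 19 to 56 with an array left out. Between APLP2KO and WT 15 were called, but 3 with the 75th percentile filter, 7 without moderated variances, 30 with the replicate block, 8 with the Gapdh ratio and 9 to 18 with an array left out. Between APPKO and WT 1 was called, or 1 to 16 with an array left out (16 without APPKO array 2), and for the interaction 0 to 11 (11 without N-dCKO array 3). The cause of these shifts was not tested. Deviations of arrays with the same replicate number correlated at -0.02 to 0.30 (median 0.05, 7 of 24 pairs above 0.1), against a median of -0.03 for unlike numbers. By mean correlation 16 of 16 arrays were closest to arrays of their own number. The labels state no pairing, so the main fit had no block. Whether arrays of 1 number share a batch was not tested. Signals near the lowest values of the array, as for Kcne2 and Slc4a5 in N-dCKO, fix a direction better than a size: Slc4a5 against WT was -2.73 with no pseudocount and -1.37 with 4 times the main one.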

Other observations

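The spread within a genotype was narrower in APLP2KO than in the other groups for most probe sets. The highest array over the lowest was 1.33 to 1.74 across the 9 probe sets in APLP2KO, against 1.55 to 4.72 in APPKO and 1.78 to 4.39 in WT. Within APPKO, array 1 was the lowest for each of the 7 genes' brightest probe sets and array 4 the highest. This is a description of 4 arrays per genotype and was not tested.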
